A study of Mus musculus with 10 samples.

Results

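The genes described here are 9 genes by which brain vessels bind leukocytes and platelets or mark an activated endothelium, namely Icam1, Icam2, Vcam1, Sele, Selp, Vwf, Cd34, Edn1 and Plvap. They were taken by symbol from 18193 measured genes. Each was read from the probe set whose platform annotation named that gene alone and which had the highest mean over the 10 arrays, and all 9 had at least 1 such probe set. Affymetrix arrays measured RNA from the operated hemisphere of male mice, killed 24 h after sham surgery or after occlusion of the middle cerebral artery (MCAO), a model of ischaemic stroke. The groups were Hsp72Tg mice after MCAO (n = 3), WT mice after MCAO (n = 3), Hsp72Tg mice after sham surgery (n = 2) and WT mice after sham surgery (n = 2). Hsp72Tg mice overexpress the heat shock protein Hsp72. The sources used here give no strain, age, transgene promoter or species of the transgene's sequence. They do not say that each array came from 1 animal, so p-values measure only the spread between these samples, which may be technical. A value is a log2 RMA expression value, so that 1 unit is a doubling, and levels of different genes are not compared because each probe set has its own response.

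An endothelial cell that meets inflammatory cytokines binds leukocytes in steps. The selectins P-selectin (Selp) and E-selectin (Sele) let leukocytes roll, and the immunoglobulin-family ligands ICAM-1 (Icam1), ICAM-2 (Icam2) and VCAM-1 (Vcam1) then hold them firmly through leukocyte integrins. Von Willebrand factor (Vwf) tethers platelets and is stored with P-selectin in the endothelial Weibel-Palade bodies. Endothelin-1 (Edn1) is a vasoconstrictor peptide, CD34 is a sialomucin of endothelium and progenitor cells, and Plvap forms the diaphragms of fenestrated vessels, which mature blood-brain barrier endothelium lacks.

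Promoter sequence was available in the RefSeq table of GRCm38.p6 for 5 of the 9 genes. The 250 bases before the start of Icam1, Sele, Selp and Edn1 are shown, a choice made from the levels described further on. Among the 6 MCAO arrays these genes were all lowest in Hsp72Tg MCAO 1 and highest in Hsp72Tg MCAO 2. Icam1 is at chr9:21015690-21015939, Edn1 at chr13:42301226-42301475, Sele at chr1:164047984-164048233 and Selp at chr1:164115014-164115263, all on the plus strand. Capitals mark every match to a searched motif.
Icam1: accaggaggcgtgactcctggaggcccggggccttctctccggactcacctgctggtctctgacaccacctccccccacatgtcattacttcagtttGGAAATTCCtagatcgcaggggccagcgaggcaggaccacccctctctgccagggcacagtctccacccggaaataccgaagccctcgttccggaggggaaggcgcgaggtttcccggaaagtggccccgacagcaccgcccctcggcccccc
Sele: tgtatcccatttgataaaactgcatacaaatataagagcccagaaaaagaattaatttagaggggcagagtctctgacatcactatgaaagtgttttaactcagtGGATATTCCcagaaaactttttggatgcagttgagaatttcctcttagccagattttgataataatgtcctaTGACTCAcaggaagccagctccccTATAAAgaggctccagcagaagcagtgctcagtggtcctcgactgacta
Selp: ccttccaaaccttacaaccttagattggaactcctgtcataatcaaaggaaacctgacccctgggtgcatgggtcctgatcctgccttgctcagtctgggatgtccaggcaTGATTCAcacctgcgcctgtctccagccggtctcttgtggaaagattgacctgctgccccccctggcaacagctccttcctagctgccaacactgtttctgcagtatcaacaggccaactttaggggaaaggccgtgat
Edn1: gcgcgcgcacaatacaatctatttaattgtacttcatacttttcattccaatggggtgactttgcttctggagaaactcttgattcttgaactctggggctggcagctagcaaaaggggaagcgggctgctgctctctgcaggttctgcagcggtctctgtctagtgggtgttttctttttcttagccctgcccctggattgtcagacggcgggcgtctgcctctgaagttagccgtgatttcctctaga

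Both strands were searched for 5 motifs. That of AP-1, spelled TGANTCA, stood in 2 of the 5 promoters, 73 to 67 bases before the start of Sele and 139 to 133 before that of Selp, and in 6.75% of 32851 promoters of the same window. The TATA box, searched as TATAAA, was found in Sele alone, 49 to 44 bases before its start, and in 12.37% of all promoters. The kappaB consensus was searched in its strict form, which opens with GGG and ends with CC, with a purine, any bases and pyrimidines between them in that order. That form stood in 7.25% of all promoters and had 0 matches in the 5, which says nothing of kappaB sites spelled otherwise. The GATA motif was searched as AGATAA and stood in 9.99% of all promoters, with 0 matches in the 5. The core of the hypoxia response element, ACGTG, stood in 16.57% of all promoters and likewise had 0 matches. The pattern GGANNTTCC, a kappaB-like spelling that does not require the opening GGG, chosen after the sequences were read, matched in Icam1 (153 to 145 bases before the start) and in Sele (145 to 137 before it), with a share of 3.59% of all promoters. No matched motifs overlapped. The Icam1 window held 65.2% G and C, that of Edn1 50.4%, that of Selp 53.6% and that of Sele 40.4%, against a median of 52.4% over all promoters. A match describes letters in the window and says nothing of binding.

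The correlation of any 2 arrays over genes, which are no replicates, was 0.9766 to 0.9969. The array Hsp72Tg MCAO 1 lay inside the range of the 4 sham arrays for 60.7% of genes and Hsp72Tg MCAO 2 for 39.3%. This share was not computed for the other MCAO arrays, so it does not show whether either value is unusual. Cerebellar markers averaged 8.22 in WT sham 1 and 6.56 to 7.07 in the other 9 arrays. Hypothalamic and pituitary markers averaged 6.64 in Hsp72Tg MCAO 1 and 7.40 to 8.11 in the other 9, and among them Pmch, a neuropeptide gene of the hypothalamus, read 7.30 in Hsp72Tg MCAO 1 and 10.12 to 11.03 in the other 9. The part of these tissue markers in the results was not tested. Hspa1b, a gene of Hsp72, read 12.05 to 13.96 in Hsp72Tg MCAO and 11.85 to 12.84 in WT MCAO, and it read 9.12 to 9.15 in Hsp72Tg sham and 9.38 to 9.48 in WT sham. It was thus not higher in the libraries labelled Hsp72Tg after sham surgery, and since the transgene's sequence is not given, the genotype labels are unchecked. Cldn5, an endothelial marker outside the 9 genes, read 9.07 to 10.23 in the 10 arrays, above the lower quartile of every array (5.64 to 5.76).

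Over both genotypes, 8 of the 9 genes had a higher mean after MCAO than after sham surgery and 1, Cd34, a lower one. With all 10 arrays 1 of the 9, Vwf, rose at a limma adjusted p under 0.05, where 1.06% of all genes were called higher, and 0 were called lower, where 0.407% were. On leaving out 1 array at a time the count was 0 to 7, and 7 only without Hsp72Tg MCAO 1, as given further on. It was 0 without any 1 WT MCAO array, 1 without Hsp72Tg MCAO 2 or 3, and 0 with the replicate number as a block. With all 10 arrays and an unadjusted p under 0.05, 7 were higher and 1 lower, and 8.30% and 10.8% of all genes were. The median change of the 9 genes was 0.65 on the log2 scale and that of all genes was -0.03. The samples are bulk tissue, so fewer or more cells of a type and less or more RNA per cell cannot be told apart.

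**Figure D1:**
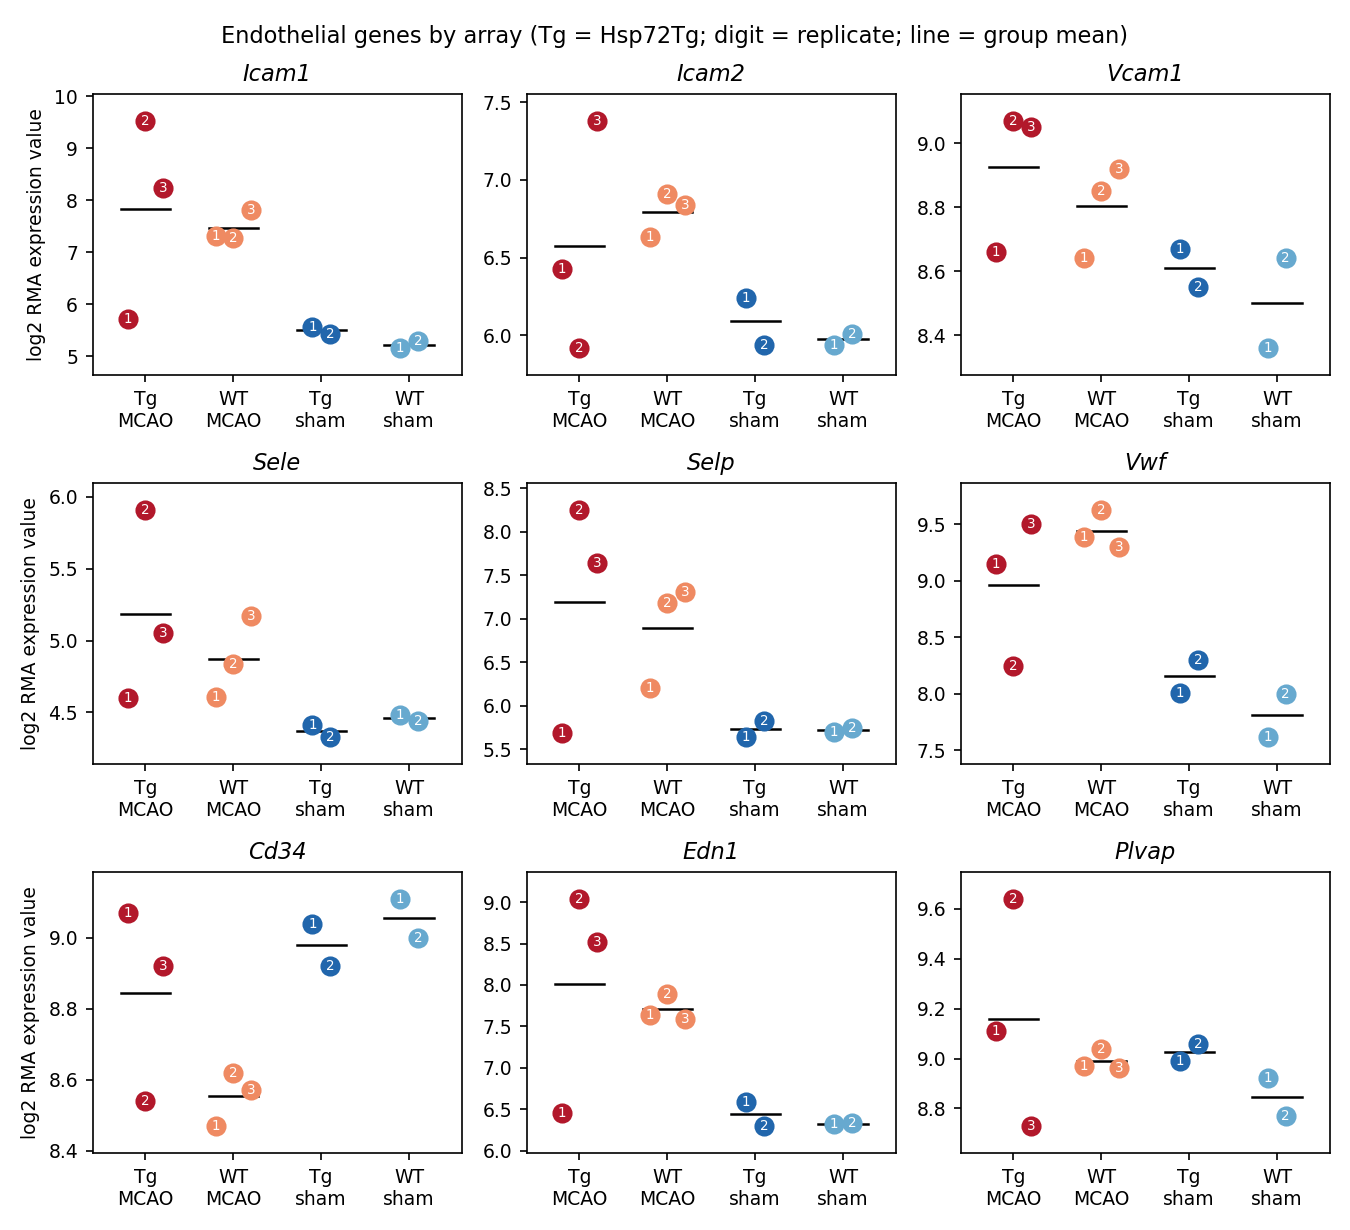
Log2 RMA expression value of each of the 9 genes (y axis, own scale for each gene) in every array, by group (x axis; Tg is Hsp72Tg). Digits are replicate numbers and lines are group means; Icam1, Selp and Edn1 spread widely in Hsp72Tg MCAO, with replicate 1 near the sham arrays and replicate 2 at the top, while Vwf was lowest in replicate 2 (8.25).

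Among the selectins, Selp (probe set 1420558_at) read 5.69, 8.25 and 7.64 in Hsp72Tg MCAO and 6.20, 7.18 and 7.31 in WT MCAO. It read 5.64 and 5.82 in Hsp72Tg sham and 5.70 and 5.74 in WT sham. Hsp72Tg MCAO 1 lay inside the sham range, and the other 5 MCAO arrays lay above every sham array. Selp was higher after MCAO by 1.32 (SE 0.43, limma adjusted p = 0.144), or 2.5-fold, which did not pass. Of its 4 sham values, 2 lay below the lower quartile of their arrays. Its other 2 probe sets were dimmer and differed by 0.79 and 0.37, so the size depends on the probe set.

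Sele (1421712_at) read 4.60, 5.91 and 5.05 in Hsp72Tg MCAO and 4.61, 4.84 and 5.17 in WT MCAO, against 4.41 and 4.33 in Hsp72Tg sham and 4.48 and 4.44 in WT sham. The 6 MCAO arrays lay above the 4 sham arrays without overlap, with the highest value in Hsp72Tg MCAO 2. The difference was 0.61 (SE 0.22, limma adjusted p = 0.17). Sele was dim: 4 sham and 5 MCAO arrays were below the lower quartile of their array, and its fold was 1.53.

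Icam1 (1424067_at), the ligand of the integrins LFA-1 and Mac-1, had the largest difference of the 9. It read 5.71, 9.53 and 8.24 in Hsp72Tg MCAO and 7.32, 7.28 and 7.82 in WT MCAO. The sham values were 5.56 and 5.43 in Hsp72Tg and 5.16 and 5.29 in WT. As for Sele, every MCAO array was above every sham array. These were the 2 of the 9 genes without overlap and higher after MCAO, as 3.19% of all genes were, and 0 were lower without overlap, as 3.41% were. Hsp72Tg MCAO 1 stood just above the sham arrays and Hsp72Tg MCAO 2 far above the rest. The difference was 2.29 (SE 0.58, 95% interval 0.99 to 3.59), or 4.89-fold, and did not pass (limma adjusted p = 0.0816). The 4 sham values lay below the lower quartile of their arrays.

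Icam2 (1448862_at), a constitutive endothelial ligand of LFA-1, read 6.43, 5.92 and 7.38 in Hsp72Tg MCAO and 6.63, 6.91 and 6.84 in WT MCAO, against 6.24 and 5.94 in Hsp72Tg sham and 5.94 and 6.01 in WT sham. Hsp72Tg MCAO 2, which was highest for Icam1, was the lowest of the 10 arrays for Icam2. The mean difference was 0.65 (SE 0.23, limma adjusted p = 0.17).

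Vcam1 (1448162_at), the ligand of the integrin VLA-4, read 8.66, 9.07 and 9.05 in Hsp72Tg MCAO and 8.64, 8.85 and 8.92 in WT MCAO. It read 8.67 and 8.55 in Hsp72Tg sham and 8.36 and 8.64 in WT sham. Replicate 1 of each MCAO group lay inside the range of the sham arrays. The difference was small, 0.31 (SE 0.11, limma adjusted p = 0.153), or 1.24-fold, and its other 2 probe sets differed by 0.14 and 0.31.

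Vwf (1435386_at) read 9.15, 8.25 and 9.50 in Hsp72Tg MCAO and 9.39, 9.63 and 9.30 in WT MCAO. It read 8.01 and 8.30 in Hsp72Tg sham and 7.62 and 8.0 in WT sham. Hsp72Tg MCAO 2 lay inside the range of the sham arrays and the other 5 MCAO arrays lay well above it. Vwf rose by 1.22 (SE 0.21, 95% interval 0.74 to 1.70, limma adjusted p = 0.0341), or 2.33-fold. The call was lost on leaving out any 1 sham array or any 1 WT MCAO array, with adjusted p between 0.0565 and 0.154 and changes between 1.12 and 1.31, and it was kept without any 1 Hsp72Tg MCAO array (adjusted p = 0.00316 to 0.039).

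Edn1 (1451924_a_at) read 6.46, 9.04 and 8.52 in Hsp72Tg MCAO and 7.64, 7.89 and 7.59 in WT MCAO. In the sham groups it read 6.59 and 6.30 in Hsp72Tg and 6.32 and 6.33 in WT. Hsp72Tg MCAO 1 was inside the sham range and the other 5 MCAO arrays were above it. The difference was 1.47 (SE 0.41, limma adjusted p = 0.10), or 2.78-fold.

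Cd34 (1416072_at) read 9.07, 8.54 and 8.92 in Hsp72Tg MCAO and 8.47, 8.62 and 8.57 in WT MCAO, against 9.04 and 8.92 in Hsp72Tg sham and 9.11 and 9.0 in WT sham. The 3 WT MCAO arrays and Hsp72Tg MCAO 2 were below every sham array. The mean difference was -0.32 (SE 0.10, limma adjusted p = 0.137).

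Plvap (1418090_at) read 9.11, 9.64 and 8.73 in Hsp72Tg MCAO and 8.97, 9.04 and 8.96 in WT MCAO, against 8.99 and 9.06 in Hsp72Tg sham and 8.92 and 8.77 in WT sham. Its highest and lowest values were both in Hsp72Tg MCAO. The difference was 0.14 with an interval of -0.19 to 0.47 (SE 0.15, limma adjusted p = 0.657).

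Each array was left out in turn. The fit without Hsp72Tg MCAO 1 is given at length by a choice made after seeing the data. That array read near the sham arrays for Icam1, Edn1 and Selp, so leaving it out by itself widens their differences. Without Hsp72Tg MCAO 1, 7 of the 9 genes passed over both genotypes, an alternative that also moved the calls over all genes to 6.02% higher and 6.35% lower. Icam1 then rose by 2.82 (SE 0.23, limma adjusted p = 7.98e-05), Edn1 by 1.86 (adjusted p = 1.95e-05), Selp by 1.70 (adjusted p = 0.00134) and Sele by 0.76 (adjusted p = 0.0201). Vcam1 rose by 0.38 (limma adjusted p = 0.0246), Vwf by 1.17 (adjusted p = 0.00917), and Cd34 fell by 0.38 (adjusted p = 0.0277). Icam2 and Plvap were the 2 that did not pass. With both Hsp72Tg MCAO 1 and Hsp72Tg MCAO 2 left out, chosen after seeing the data, 6 passed, all higher: Icam1, Icam2, Sele, Selp, Vwf and Edn1, against 5.89% of all genes called higher and 4.92% lower. Icam2 was then higher by 1.05. Hsp72Tg MCAO 1 and 2 were the lowest MCAO arrays for Icam2 (6.43 and 5.92) and for Vwf (9.15 and 8.25). Leaving them out thus by itself widens the differences of these 2 genes.

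**Figure D2:**
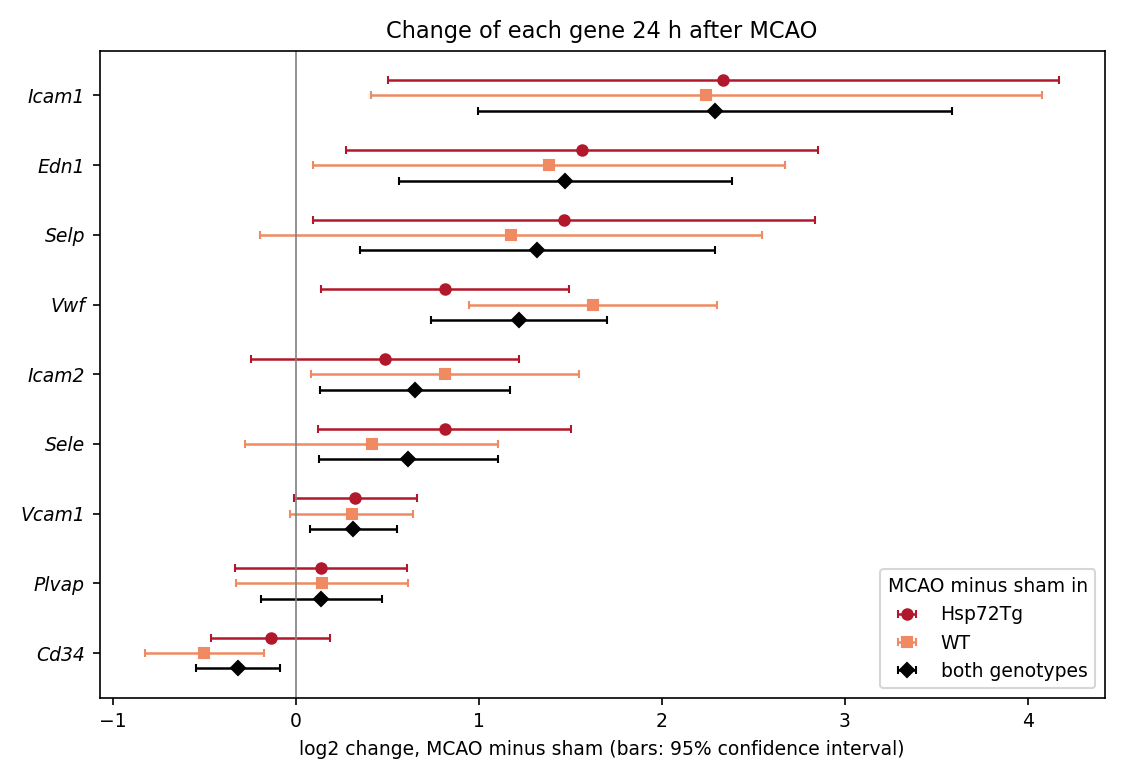
Log2 change, MCAO minus sham (x axis), of each gene (y axis) in Hsp72Tg, in WT and over both genotypes, with 95% confidence intervals of the limma contrast. Icam1 had the largest difference (2.29 over both genotypes, interval 0.99 to 3.59), and the interval of Plvap (-0.19 to 0.47) held 0.

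Within Hsp72Tg, 0 of the 9 genes passed between 3 MCAO and 2 sham arrays, where limma called 0.0165% of all genes higher and 0.00550% lower. At an unadjusted p under 0.05 there were 5 higher (Icam1, Sele, Selp, Vwf and Edn1) and 0 lower, and 4.73% and 7.29% of all genes were. Icam1 was higher by 2.34 (SE 0.82), Edn1 by 1.56 (SE 0.58), Selp by 1.46 (SE 0.61), and Sele and Vwf by 0.81 each (SE 0.31 and 0.30). Icam1 and Sele did not overlap between MCAO and sham, as 9.05% of all genes did in the higher direction. Without Hsp72Tg MCAO 1, 4 passed: Icam1 rose by 3.40 (limma adjusted p = 0.000582), Edn1 by 2.34 (adjusted p = 0.000135), Selp by 2.21 (adjusted p = 0.00522) and Sele by 1.11 (adjusted p = 0.0338), where 3.39% of all genes were called higher and 3.11% lower. Without both Hsp72Tg MCAO 1 and Hsp72Tg MCAO 2 the comparison rests on Hsp72Tg MCAO 3, assumed to vary like the other groups, and 5 rose: Icam1, Icam2, Selp, Vwf and Edn1, where 2.94% of all genes were called higher and 1.79% lower.

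In WT, 0 of the 9 genes passed between 3 MCAO and 2 sham arrays in the fit that shares its spread over the 4 groups, where limma called 0.0495% of all genes higher and 0.00550% lower. The 3 WT MCAO arrays lay above both WT sham arrays for 8 genes, as for 16.4% of all genes, and below them for Cd34, as for 22.5% of all genes. At an unadjusted p under 0.05, 4 were higher (Icam1, Icam2, Vwf and Edn1) and 1 lower (Cd34), and 5.71% and 4.52% of all genes were. Icam1 was higher by 2.24 (SE 0.82), Vwf by 1.63 (SE 0.30), Edn1 by 1.38 (SE 0.58) and Icam2 by 0.81 (SE 0.33), and Cd34 was lower with -0.50 (SE 0.15). Without Hsp72Tg MCAO 1, Icam1, Vwf and Edn1 passed in WT, where 1.96% of all genes were called higher and 0.583% lower. Without both Hsp72Tg MCAO 1 and Hsp72Tg MCAO 2, Icam2 and Cd34 passed as well, where 3.06% of all genes were called higher and 1.06% lower. In a fit of the 5 WT arrays alone the 5 genes Icam1, Icam2, Vwf, Edn1 and Cd34 passed, where 3.71% of all genes were called higher and 1.54% lower. There Icam1 rose by 2.24 with an SE of 0.17 (limma adjusted p = 0.000773) and Edn1 by 1.38 with an SE of 0.11 (adjusted p = 0.000912). Vwf rose by 1.63 (limma adjusted p = 0.00149), Icam2 by 0.81 (adjusted p = 0.00618), and Cd34 fell by 0.50 (adjusted p = 0.0208). The like fit of the Hsp72Tg arrays alone called 0 of all genes, and so 0 of the 9, in Hsp72Tg. The SD of Icam1 was 1.95 in Hsp72Tg MCAO and 0.31 in WT MCAO. For Edn1 it was 1.36 in Hsp72Tg MCAO and 0.16 in WT MCAO, and for Vwf 0.65 and 0.17. The share of all genes with a wider spread in Hsp72Tg MCAO was not counted. Array weights, which are estimated over all genes and are lower for a more variable array, were 0.465, 0.487 and 0.958 in Hsp72Tg MCAO. They were 0.731, 2.256 and 1.77 in WT MCAO. The wider spread is therefore not read as particular to these genes.

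Set against the sham mean of its own genotype, each MCAO array showed which genes varied together. Hsp72Tg MCAO 1 differed by 0.22 for Icam1, 0.02 for Edn1 and -0.04 for Selp, yet by 1.0 for Vwf. Hsp72Tg MCAO 2 differed by 4.04 for Icam1, 2.59 for Edn1, 2.52 for Selp and 1.54 for Sele, the highest of the 6 MCAO arrays for each, while Vwf differed by 0.10 and Icam2 by -0.17, the lowest. The other 4 MCAO arrays differed by 2.05 to 2.75 for Icam1 and 1.35 to 1.81 for Vwf. Among the 6 MCAO arrays, Icam1, Selp, Sele, Edn1 and Vcam1 were thus highest in the array in which Vwf and Icam2 were lowest. Plvap was highest there too (0.62). For Vcam1 the lead was small, with 0.47 in Hsp72Tg MCAO 2 and 0.45 in Hsp72Tg MCAO 3.

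**Figure D3:**
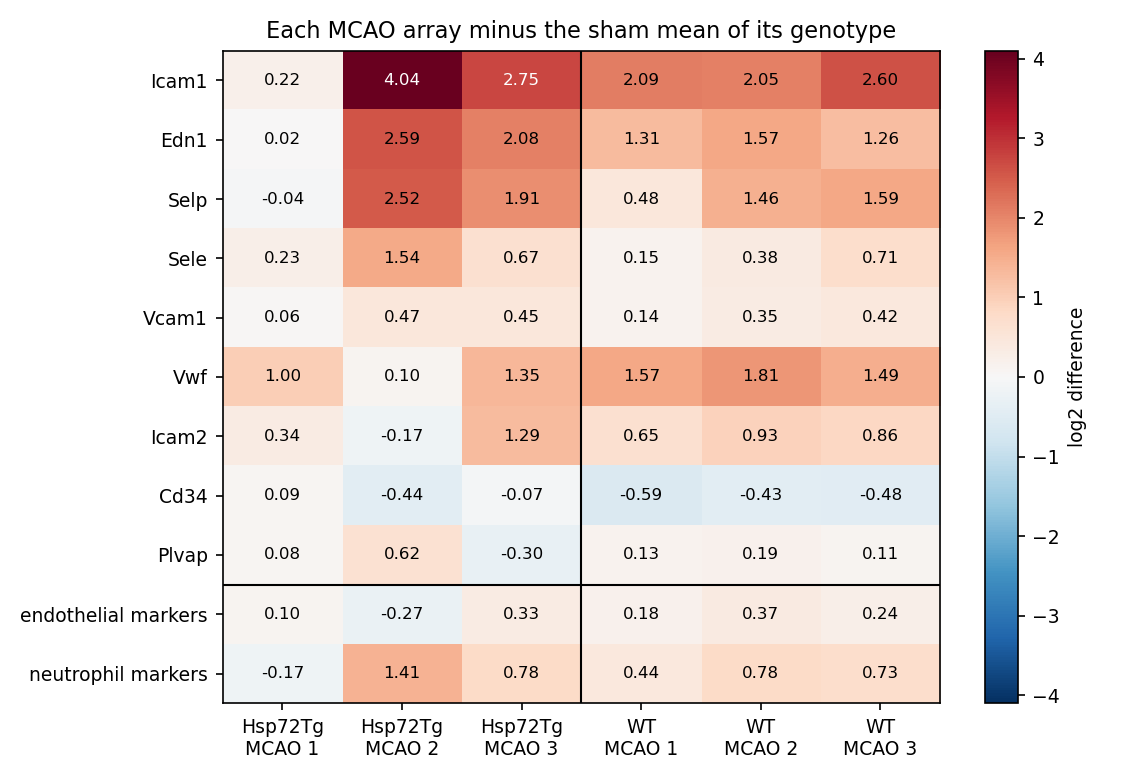
Each MCAO array (columns) minus the sham mean of its own genotype, in log2 units, for the 9 genes and for the mean of the endothelial and neutrophil marker lists (rows). In Hsp72Tg MCAO 2 the values were 4.04 for Icam1 and 0.10 for Vwf, and in Hsp72Tg MCAO 1 they were 0.22 and 1.0.

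Over the 6 MCAO arrays Icam1 correlated with Edn1 at r = 0.96, with Selp at 0.93, with Sele at 0.89 and with Vcam1 at 0.84. Vwf correlated with Icam2 at 0.86 over these arrays, with Icam1 at -0.55, with Sele at -0.79 and with Plvap at -0.92. These are descriptions over 6 arrays of 2 genotypes. Hsp72Tg MCAO 1 and 2 held the lowest and highest values of Icam1, Edn1, Selp and Sele, so the correlations among these rest largely on those 2 arrays. Correlations without them were not computed. Within WT MCAO, Edn1 was highest (7.89) where Icam1 was lowest (7.28) and lowest (7.59) where Icam1 was highest (7.82). Selp, Sele and Vcam1 were highest in the same WT MCAO array as Icam1.

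Markers of other cell types varied over the same arrays. The mean of 9 neutrophil markers differed from that of the own sham group by -0.17, 1.41 and 0.78 in Hsp72Tg MCAO and by 0.44, 0.78 and 0.73 in WT MCAO, so Hsp72Tg MCAO 1 and 2 were its lowest and highest as for Icam1. Its levels ranged from 5.84 to 7.42 in Hsp72Tg MCAO, 6.48 to 6.82 in WT MCAO, 5.96 to 6.06 in Hsp72Tg sham and 5.66 to 6.41 in WT sham. S100a8, a calcium-binding protein abundant in neutrophils, read 6.20, 10.88 and 9.46 in Hsp72Tg MCAO and 8.89, 9.51 and 9.72 in WT MCAO, against 7.08 and 6.66 in Hsp72Tg sham and 7.67 and 5.53 in WT sham (difference 2.38, SE 0.78, limma adjusted p = 0.144). The 9 were uneven. S100a9, the partner of S100a8, differed by 2.49 and Mmp8 by 0.59, while Mpo differed by 0.04, Camp by 0.06, Csf3r by 0.06 and Ltf by -0.11. The median change of the 9 was 0.18 and none passed with all arrays. Ngp, a neutrophil granule protein, read 8.46 in Hsp72Tg MCAO 2 and 5.60 to 6.58 in the other 9 arrays. The mean of 12 endothelial markers differed by 0.10, -0.27 and 0.33 in Hsp72Tg MCAO and by 0.18, 0.37 and 0.24 in WT MCAO, lowest in Hsp72Tg MCAO 2 as for Vwf and Icam2. Its levels ranged from 8.12 to 8.72 in Hsp72Tg MCAO, 8.49 to 8.68 in WT MCAO, 8.38 to 8.40 in Hsp72Tg sham and 8.28 to 8.34 in WT sham. Of these 12, 1 rose, where 1.06% of all genes were called higher, and 0 fell, where 0.407% were called lower. It was the tight junction gene Cldn5 (0.65, SE 0.12, limma adjusted p = 0.036), a call lost on leaving out any 1 sham or WT MCAO array (adjusted p up to 0.152). Slco1a4, a transporter of barrier endothelium, read 10.25, 8.30 and 9.57 in Hsp72Tg MCAO, 10.06, 10.04 and 9.76 in WT MCAO, 10.49 and 10.30 in Hsp72Tg sham and 10.57 and 10.45 in WT sham. The 12 were split in Hsp72Tg MCAO 2, so their mean does not speak for each of them. There Slco1a4, Tek (6.53), Abcb1a (7.38) and Ramp2 (8.12) read below every sham array. Slc2a1 (11.59), Kdr (8.17), Erg (6.73) and Cldn5 (9.89) read above every sham array, and the rest lay inside the sham range. The part of these cell types in the results was not tested.

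Over both genotypes the median changes of the remaining marker lists were 0.05 for 10 pericyte and smooth muscle markers, 0.06 for 7 platelet markers, 0.16 for 6 monocyte markers and -0.27 for 9 microglia markers. They were 0.13 for 8 astrocyte markers, -0.14 for 10 neuron markers, 0.09 for 4 red blood cell markers and -0.01 for 8 choroid plexus markers. For 9 meningeal and perivascular fibroblast markers the median was 0.28, for 7 cerebellar markers -0.30 and for 9 hypothalamic and pituitary markers -0.13. In these 11 lists 1 gene passed with all arrays, where 1.06% of all genes were called higher and 0.407% lower. It was Mgp (0.65, SE 0.13, limma adjusted p = 0.0428), an inhibitor of calcification. Its call was lost on leaving out any 1 array other than Hsp72Tg MCAO 1 (limma adjusted p up to 0.164). Of the platelet markers, Pf4, a chemokine of platelet granules, read 6.59, 7.70 and 8.12 in Hsp72Tg MCAO and 7.6, 7.78 and 7.67 in WT MCAO, against 6.89 and 6.37 in Hsp72Tg sham and 6.49 and 6.53 in WT sham. Its difference of 1.01 (SE 0.25, limma adjusted p = 0.0796) did not pass. It stood apart from its list, whose other members differed by -0.14 to 0.12.

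Between genotypes 0 of the 9 genes passed the test. The difference of the MCAO changes, Hsp72Tg minus WT, was called for 0 genes in all by limma (0% higher and 0% lower). At an unadjusted p under 0.05 it held for 0 of the 9, and 0.616% of all genes were higher and 1.14% lower. For Vwf this difference was -0.81 (SE 0.43, interval -1.77 to 0.15) and for Cd34 it was 0.36 (SE 0.20, interval -0.10 to 0.82), and neither passed (limma adjusted p = 1). For Icam1 the difference was 0.09 with an interval of -2.50 to 2.69, for Edn1 0.18 (-1.64 to 2.01) and for Selp 0.29 (-1.65 to 2.23), so these intervals span several fold in either direction. Icam2 differed by -0.33 (interval -1.36 to 0.71), Sele by 0.40 (-0.58 to 1.38), Vcam1 by 0.02 (-0.46 to 0.50) and Plvap by -0.01 (-0.67 to 0.66).

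After MCAO, Hsp72Tg minus WT was likewise called for 0 of the 9 genes, 0% of all genes being called in either direction. It held for 0 of the 9 at an unadjusted p under 0.05, where 0.890% of all genes were higher and 1.79% lower, and the groups overlapped for all 9, as they did not for 2.75% of all genes in the higher direction and 4.69% in the lower. The nearest was Cd34, with a mean of 8.84 in Hsp72Tg MCAO and 8.55 in WT MCAO (difference 0.29, SE 0.13, limma adjusted p = 1). Vwf had a mean of 8.97 in Hsp72Tg MCAO and 9.44 in WT MCAO (difference -0.47, SE 0.27), and without both Hsp72Tg MCAO 1 and Hsp72Tg MCAO 2 that difference was 0.06. The difference of Icam1 was 0.36 (SE 0.73), and it was -0.50 without Hsp72Tg MCAO 2 and 1.42 without Hsp72Tg MCAO 1.

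After sham surgery, with 2 arrays a genotype, Hsp72Tg minus WT was called for 0 of the 9 genes (0% of all genes in either direction). At an unadjusted p under 0.05 it held for 0 of the 9, and 0.698% of all genes were higher and 0.857% lower. The groups did not overlap for Icam1, Vwf and Plvap, higher in Hsp72Tg sham, and for Sele, lower there, as for 12.8% and 14.2% of all genes. The differences were 0.26 for Icam1 (SE 0.90), 0.34 for Vwf (SE 0.33), 0.18 for Plvap (SE 0.23) and -0.09 for Sele (SE 0.34). Ordering the 4 groups by mean, the highest for Icam1, Vcam1, Sele, Selp, Edn1 and Plvap was Hsp72Tg MCAO, for Icam2 and Vwf it was WT MCAO, and for Cd34 it was WT sham. In no gene did the MCAO groups separate from each other. WT MCAO separated from Hsp72Tg sham, the group next below it, for Icam1, Selp and Edn1. It separated from WT sham, there the group next below it, for Sele and Plvap. Shares over all genes were counted without regard to the order of means. Counted that way, WT MCAO lay above Hsp72Tg sham without overlap for Icam1, Icam2, Sele, Selp, Vwf and Edn1, as for 14.8% of all genes. It lay above WT sham without overlap for 8 of the 9 genes, as for 16.4% of all genes.

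The surrounding pathway was read from 4 lists, for which 1.06% and 0.407% of all genes called higher and lower over both genotypes is again the background. Of 22 further endothelial adhesion and activation genes, 1 rose and 0 fell, with a median change of 0.54. Pecam1, a junctional adhesion molecule that leukocytes use in transmigration, rose by 1.0 (SE 0.18, limma adjusted p = 0.035). It read 7.20, 7.44 and 8.17 in Hsp72Tg MCAO and 7.40, 7.84 and 7.74 in WT MCAO, against 6.53 and 6.84 in Hsp72Tg sham and 6.61 and 6.54 in WT sham. Every MCAO array was above every sham array, Hsp72Tg MCAO 1 and 2 included. The call was lost on leaving out any 1 sham or WT MCAO array, with a limma adjusted p up to 0.148 and changes of 0.86 to 1.1 over all arrays left out. Thbd, which turns thrombin towards protein C activation, was higher by 1.51 (SE 0.34, limma adjusted p = 0.0618), and Procr, the endothelial protein C receptor, by 1.48 (SE 0.37, adjusted p = 0.0796), and neither passed. Without Hsp72Tg MCAO 1, 11 of the 22 rose and 1, the neuronal ligand Icam5, fell, where 6.02% of all genes were called higher and 6.35% lower. The 11 were Angpt2, Cdh5, Emcn, Eng, Esam, Lyve1, Nos3, Pecam1, Podxl, Procr and Thbd.

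Of 15 leukocyte and platelet counter-receptors, 2 rose and 0 fell, with a median change of 0.05. Cd44, which binds hyaluronan and E-selectin, read 8.0, 9.63 and 10.01 in Hsp72Tg MCAO and 9.60, 9.62 and 9.87 in WT MCAO, against 6.02 and 5.84 in Hsp72Tg sham and 6.43 and 6.12 in WT sham. It rose by 3.35 (SE 0.32, limma adjusted p = 0.00379), every MCAO array lay above every sham array, and it also passed within WT (adjusted p = 0.0455). Over both genotypes Cd44 passed on leaving out each of the 10 arrays (limma adjusted p up to 0.0487), and within WT the call was lost without any 1 sham or WT MCAO array (adjusted p up to 0.319). Itgb2, the common beta chain of the ICAM-1 receptors, read 7.14, 7.40 and 8.30 in Hsp72Tg MCAO and 7.82, 7.91 and 7.97 in WT MCAO, against 6.84 and 6.66 in Hsp72Tg sham and 6.63 and 6.84 in WT sham. It rose by 1.02 (SE 0.19, limma adjusted p = 0.0426), a call lost without any 1 sham or WT MCAO array (adjusted p up to 0.165). Selplg, the P-selectin ligand of leukocytes and microglia, differed by -0.68 (SE 0.25, limma adjusted p = 0.185). Itga4, the VCAM-1 receptor chain, read 7.93, 6.79 and 7.06 in Hsp72Tg MCAO and 7.58, 7.47 and 7.47 in WT MCAO, against 7.48 and 8.07 in Hsp72Tg sham and 8.0 and 7.90 in WT sham. Without Hsp72Tg MCAO 1, Cd44, Itgb1 and Itgb2 rose and Itga4 and Selplg fell, 3 and 2 of the 15, where 6.02% of all genes were called higher and 6.35% lower. The platelet glycoproteins Gp9, Gp1bb and Itga2b, which the platelet marker list also holds, differed by 0.03, -0.14 and 0.09.

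The 5 other measured endothelin genes had a median change of 0.10 and limma adjusted p between 0.0671 and 0.687, none past the threshold. Ece1, which cleaves big endothelin to the active peptide, was higher by 0.67 (SE 0.15, limma adjusted p = 0.0671) and the receptor Ednrb by 0.45 (SE 0.13, adjusted p = 0.106), and both rose without Hsp72Tg MCAO 1. Edn3 differed by -0.35 (SE 0.14, limma adjusted p = 0.216), unlike Edn1, and Edn2 by 0.10 (SE 0.12).

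Of 19 inducers and regulators of adhesion gene transcription, 1 rose and 0 fell, with a median change of 0.64. Tnfrsf1a, the main TNF receptor of endothelium, rose by 1.35 (SE 0.16, limma adjusted p = 0.0113). It read 9.54, 10.27 and 10.53 in Hsp72Tg MCAO and 10.33, 10.31 and 10.46 in WT MCAO, against 8.86 and 9.01 in Hsp72Tg sham and 8.83 and 8.88 in WT sham. The call was lost without WT sham 1, WT sham 2, Hsp72Tg sham 1 or WT MCAO 3 (limma adjusted p up to 0.0846). The cytokine Il6 read 4.43, 9.29 and 8.29 in Hsp72Tg MCAO and 8.15, 8.06 and 8.57 in WT MCAO, against 4.68 and 4.39 in Hsp72Tg sham and 4.52 and 4.77 in WT sham. Hsp72Tg MCAO 1 was inside the sham range for Il6 and the other 5 MCAO arrays were far above it. Its difference of 3.21 (SE 0.76, limma adjusted p = 0.0716) did not pass. Klf4, an endothelial regulator that restrains adhesion genes, differed by 1.11 (SE 0.39, limma adjusted p = 0.166). Without Hsp72Tg MCAO 1, 12 of the 19 rose, among them Il6, Il1b, Tnf, Nfkbia, Tnfaip3 and Rela, and 0 fell, where 6.02% of all genes were called higher and 6.35% lower.

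**Figure D4:**
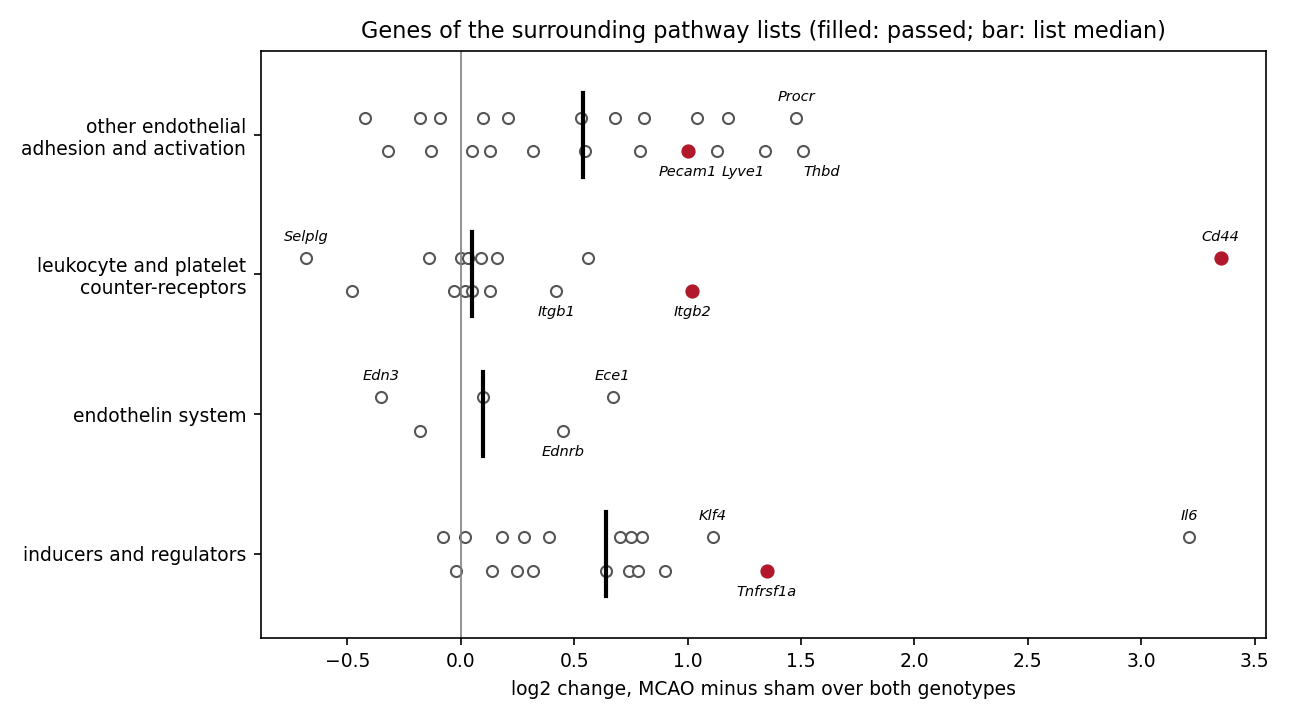
Log2 change, MCAO minus sham over both genotypes (x axis), of every measured gene of the 4 pathway lists (y axis). Filled points passed at a limma adjusted p under 0.05 (Pecam1, Cd44, Itgb2 and Tnfrsf1a) and bars mark list medians (0.54, 0.05, 0.10 and 0.64 from top to bottom).

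For each of the 9 genes the gene with the most similar profile over the 10 arrays was found by Pearson correlation, as a description over arrays that share 4 groups. Icam1 was nearest to Plaur (r = 0.995), the urokinase receptor, which read 7.01, 9.43 and 8.66 in Hsp72Tg MCAO and 7.77, 8.02 and 8.26 in WT MCAO, against 6.91 and 6.61 in Hsp72Tg sham and 6.52 and 6.51 in WT sham. Sele was nearest to Mmp8 (r = 0.981), the neutrophil collagenase, and Selp to Pik3ap1 (r = 0.979), an adaptor of leukocyte signalling. Edn1 was nearest to Rell1 (r = 0.987), Icam2 to Jpt2 (r = 0.988) and Vcam1 to Mrpl9 (r = 0.971). Vwf was nearest to Mtmr11 (r = 0.965), Plvap to Brap (r = 0.953) and Cd34 to Tom1l1 (r = 0.928). Over the 6 MCAO arrays alone these correlations lay between 0.922 for Cd34 and 0.996 for Icam2. Each gene was picked for its correlation over arrays that include these 6, so high values among them follow from the choice. Rank correlations over the 10 arrays lay between 0.782 for Cd34 and Plvap and 0.988 for Vcam1.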

How the data were processed

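Total RNA of 10 hemispheres was measured on Affymetrix arrays, 3 each of Hsp72Tg and WT mice after MCAO and 2 each after sham surgery. The deposited values are log2 expression values made by the authors with RMA, per the submitters' processing notes, and its version and settings are not given in those notes. RMA corrects background, normalizes arrays to each other and combines the probes of each set, which compresses differences of dim probe sets. Scanner files were not used here, and the number of arrays limits the precision.

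Control probe sets (64 of 45101) were left out. Of the rest, 34945 had 1 gene symbol, 932 several and 9160 none listed. Symbols were checked through Entrez identifiers (34741 matched, 0 changed). The probe set with the highest mean stood for each of 18193 genes. limma 3.58.1 in R 4.3.3 fitted a mean per group over the 10 arrays (6 residual and 3.72 prior degrees of freedom), two-sided, with Benjamini-Hochberg adjustment over all genes at 0.05, and the fit was tested on simulated data.

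Named were the 9 genes, the genes of 4 pathway lists that passed (with the largest changes where fewer than 3 did) and the nearest gene of each of the 9. The other named genes (Edn2, Itga4, Gp9, Gp1bb and Itga2b, the markers S100a8, S100a9, Mmp8, Mpo, Camp, Csf3r, Ltf, Ngp, Pmch, Slco1a4, Pf4, Cldn5 and Mgp, and those that passed without Hsp72Tg MCAO 1) were picked once their values had been seen. Tek, Abcb1a, Ramp2, Slc2a1, Kdr and Erg were named to show how the endothelial marker list split. The members and lists were chosen with earlier results of these data known. Genes of the lists that the table did not pair with 1 symbol, Gp1ba, Ednra and Nfkb1 among them, were not analysed here. Alternatives were the replicate block, the groups compared alone, eBayes with trend and robust options, array weights, quantile normalization, median centring, an adjusted p under 0.01, the mean of probe sets, a filter on dim ones, leaving out each array and, chosen after seeing the data, leaving out 2 pairs of arrays.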

Additional observations from a re-analysis of the deposited data

Results flagged for a closer look

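Within the 6 MCAO arrays, Vwf in Hsp72Tg MCAO 2 stood apart from the others at 8.25, with the nearest other array at 9.15. The gap was 0.654 of the whole range, above the critical value of 0.625 for 6 arrays. Within the 4 sham arrays, Edn1 in Hsp72Tg sham 1 stood apart at 6.59, with the nearest at 6.33 and a gap of 0.896 of the range, above the critical value of 0.829 for 4 arrays. Chance flags about 5% of groups, and 18 groups were examined.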

How the results depend on the processing

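Over both genotypes the 1 called gene of the 9 became 0 with the replicate block, 0 at an adjusted p under 0.01 and 5 with array weights (Icam1, Icam2, Selp, Vwf and Edn1), and 0 to 7 on leaving out each array. It became 4 without both Hsp72Tg MCAO 1 and WT sham 1 and 6 without both Hsp72Tg MCAO 1 and Hsp72Tg MCAO 2. In WT the count of 0 became 5 with the WT arrays alone, 6 with array weights, 0 to 3 on leaving out each array, and 1 and 5 without those pairs. In Hsp72Tg the 0 became 0 to 4 on leaving out each array and 3 and 5 without those pairs. With the Hsp72Tg arrays alone the count in Hsp72Tg stayed at 0. The 3 comparisons between genotypes stayed at 0 under every alternative run. The cause of these shifts was not tested.

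Pairing of the samples by the replicate numbers of the labels was not evident. Deviations of same-numbered Hsp72Tg MCAO and WT MCAO arrays correlated at 0.054, -0.156 and 0.249. Those of WT MCAO and WT sham arrays correlated at 0.097 and 0.217. Over all pairs of groups the values lay between -0.156 and 0.249. With so few arrays a group they cannot exclude pairing. With the number as a block, Vwf changed by 1.12 (limma adjusted p = 0.162).

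Directions turned in 42 of the single-gene values, none of which had passed. Over both genotypes Plvap was -0.078 without both Hsp72Tg MCAO 1 and Hsp72Tg MCAO 2. Without them Plvap was -0.298 in Hsp72Tg, the difference of the MCAO changes was 0.475 for Icam2, and Hsp72Tg minus WT after MCAO was 0.589 for Icam2, 0.064 for Vwf and -0.261 for Plvap. The Plvap difference of the MCAO changes was 0.004 with quantile normalization and 0.043 with median centring. After sham surgery, Vcam1 was -0.027 and Selp -0.009 without both Hsp72Tg MCAO 1 and WT sham 1. On leaving out each array, changes in Hsp72Tg ranged from -0.254 to 0.012 for Cd34 and -0.107 to 0.351 for Plvap. The difference of the MCAO changes ranged from -0.759 to 1.153 for Icam1, -0.728 to 0.001 for Icam2, -0.117 to 0.154 for Vcam1, -0.24 to 1.039 for Selp, -0.331 to 0.958 for Edn1 and -0.249 to 0.21 for Plvap. Hsp72Tg minus WT after MCAO ranged from -0.495 to 1.417 for Icam1, -0.614 to 0.115 for Icam2, -0.05 to 0.603 for Sele, -0.233 to 1.046 for Selp, -0.212 to 1.076 for Edn1 and -0.07 to 0.389 for Plvap. After sham surgery it ranged from -0.035 to 0.263 for Icam2, -0.027 to 0.243 for Vcam1, -0.081 to 0.095 for Selp and -0.026 to 0.263 for Edn1.

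The filter on dim probe sets removed Sele, which has no value there, and the groups compared alone equal all arrays for the comparisons over both genotypes. Dim sham signals of Icam1 and Sele (4 of 4 sham arrays below the lower quartile) and of Selp (2 of 4) limit the size of their folds.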

Other observations

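Of the 9 genes, Hsp72Tg MCAO 1 lay above the 4 sham arrays for 5, inside their range for 4 and below them for none, against 16.8%, 60.7% and 22.5% of all genes. Hsp72Tg MCAO 2 lay above for 6, below for 2 and inside for 1, against 23.5%, 37.3% and 39.3% of all genes.

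Microglia markers averaged 8.32, 7.22 and 7.68 in Hsp72Tg MCAO and 7.65, 7.96 and 7.79 in WT MCAO, against 8.47 and 8.16 in Hsp72Tg sham and 7.85 and 8.45 in WT sham, so Hsp72Tg MCAO 2 was the lowest of the 10 arrays for this list, as for Icam2. For Vwf it was the lowest of the 6 MCAO arrays. Tnfaip3, an inhibitor of NF-kappaB signalling, read 6.47, 9.06 and 7.73 in Hsp72Tg MCAO and 6.83, 6.76 and 7.44 in WT MCAO, against 6.36 and 6.63 in Hsp72Tg sham and 6.5 and 6.43 in WT sham, with its highest value in Hsp72Tg MCAO 2.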
